A study of Mus musculus with 16 samples.

Results

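MicroRNAs (miRNAs) that immune cells of the blood carry, or that inflammation is known to induce, were measured in plasma extracellular vesicles (pEVs). The 9 mature miRNAs were mmu-miR-223-3p, mmu-miR-142a-3p, mmu-miR-142a-5p, mmu-miR-150-5p, mmu-miR-342-3p, mmu-miR-146a-5p, mmu-miR-146b-5p, mmu-miR-155-5p and mmu-miR-21a-5p, named below without the mouse prefix. They were taken by name from a list drawn up with earlier results of these data known, and all 9 were found among the 15159 non-coding RNA (ncRNA) entries, of which 817 are mature miRNAs. No member passed the test of PS19 against WT at a raw p of 0.05. Under a scaling built from miRNAs alone, miR-223-3p did, at a higher level in PS19 mice, but not once PS19 replicate 3 was left out.

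The samples were small RNA libraries from 8 PS19+/- mice and 8 WT littermates of about 9.6 months, 1 library per mouse, so replicates are separate animals. PS19 mice are heterozygous for a transgene in which the mouse Prnp promoter drives human MAPT, the gene of tau, with the P301S mutation, on a mixed C57BL/6 and C3H background. The comparison addresses whether small RNAs of circulating vesicles differ when tau pathology is present. Males and females were equal in number in each group, but the labels do not give the sex of single mice.

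The vesicles were precipitated from 200 µL of plasma, so albumin and lipoproteins come along, and the pool holds vesicles from every organ that sheds them into blood. In such a pool, fewer vesicles of a cell type and less RNA per vesicle cannot be told apart. The marker miRNAs of liver took between 19.3% and 60.9% of mature miRNA reads, and those of red blood cells between 1.79% and 19.9%. The red blood cell sum holds the near-identical miR-486a-5p (736300 reads in all) and miR-486b-5p (751444). It may thus count the same reads more than once.

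A miRNA is cut from a hairpin precursor, and 1 strand of the resulting duplex, the 5p or the 3p arm, guides silencing complexes to mRNAs that pair with its seed, bases 2 to 8. miR-223 is abundant in neutrophils and platelets, miR-142 in all blood cell lineages, and miR-150 and miR-342 in mature lymphocytes. miR-146a, miR-146b and miR-155 are induced when toll-like receptors or cytokines activate NF-κB and related pathways. The miR-146 pair dampens that signalling through adaptors such as Irak1 and Traf6, whereas miR-155 sustains macrophage and lymphocyte activation. miR-21a is widely expressed and rises in many inflamed or injured tissues.

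RefSeq sequences on GRCm38.p6 were found for 8 of the 9 members, and are shown 5′ to 3′ with the seed in capitals, because the seeds decide which members can share targets:
mmu-miR-223-3p: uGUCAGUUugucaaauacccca
mmu-miR-142a-3p: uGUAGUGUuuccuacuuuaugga
mmu-miR-142a-5p: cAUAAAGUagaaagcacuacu
mmu-miR-342-3p: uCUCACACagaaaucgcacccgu
mmu-miR-146a-5p: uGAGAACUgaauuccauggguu
mmu-miR-146b-5p: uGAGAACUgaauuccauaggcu
mmu-miR-155-5p: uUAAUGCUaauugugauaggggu
mmu-miR-21a-5p: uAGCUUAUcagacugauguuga

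The 8 sequences held 7 distinct seeds. miR-146a-5p and miR-146b-5p share their seed and their first 17 bases, and differ at 2 positions after that. Among the 1738 mature sequences of the table, no other miRNA had this seed. miR-21a-5p shared its seed with miR-21c, and the seeds of the remaining 5 members were found in no other mature miRNA.

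The members come from scattered loci. miR-223-3p lies at chrX:96242884-96242905 on the plus strand, within Mir223 and an exon of the non-coding gene F630028O10Rik. The arms of Mir142 lie at chr11:87756867-87756887 (5p) and chr11:87756903-87756925 (3p) on the plus strand, in an intron of the host transcript Mir142hg, with Mir142b on the opposite strand. miR-342-3p is encoded at chr12:108658680-108658702 (plus strand) in an intron of Evl, a regulator of actin. miR-146a-5p is at chr11:43374435-43374456 on the minus strand, in Mir146, and miR-146b-5p at chr19:46342790-46342811 on the plus strand, in an intron of Mfsd13a. miR-155-5p lies at chr16:84714143-84714165 (plus strand) in an exon of its host Mir155hg, and miR-21a-5p at chr11:86584120-86584141 (minus strand) in an exon of Vmp1.

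Summed over all entries, the libraries held between 36220722 and 117583663 read counts, most of them from other ncRNA classes. With 1 entry kept per set of identical values, 11946 of 15159 entries remained, so a read may count for more than 1 entry. Mature miRNAs ranged from 51467 to 1224303 reads in PS19 mice and from 335410 to 2681285 in WT (two-sided exact permutation test of log2 reads, p = 0.0954). The 3 libraries under 200000 mature miRNA reads were all PS19 (replicates 1, 3 and 4), so values are also given without them. All PS19 library names and 2 WT names begin with the letter G, and the other WT names begin with F or A. What the letter stands for is not stated, and letter and genotype cannot be told apart for F and A.

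The members differed widely in level. Levels are compared between miRNAs as reads per 1000000 mature miRNA reads, a scale on which each mature miRNA counts whole. miR-146a-5p (median 6113 over the 16 libraries), miR-21a-5p (4941) and miR-146b-5p (2759) made up most of the members' reads. They ranked 23, 25 and 33 by mean level among the mature miRNAs. The lymphocyte miRNAs miR-150-5p (241) and miR-342-3p (149) followed. miR-142a-5p (60.3), miR-223-3p (58.0) and miR-142a-3p (28.4) were lower, and miR-155-5p (9.92) was lowest.

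Neighbours in this order were compared within libraries by a two-sided exact sign-flip permutation test, with Benjamini-Hochberg adjustment over the 8 pairs. miR-146a-5p and miR-21a-5p did not differ beyond their spread (higher in 9 of 16 libraries, adjusted p = 0.643), nor did miR-142a-5p and miR-223-3p (8 of 16, adjusted p = 0.518). Each of the other neighbours differed. miR-21a-5p exceeded miR-146b-5p, and miR-146b-5p exceeded miR-150-5p, in 16 of 16 libraries (exact p = 3.05e-05, the smallest p the test can give, adjusted p = 0.000122). The widest step was that from miR-146b-5p to miR-150-5p, with a mean log2 ratio of 3.28 ± 0.84 (SD, n = 16). Ligation steps of library preparation favour some small RNA sequences, and their part in the order was not tested.

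**Figure D1:**
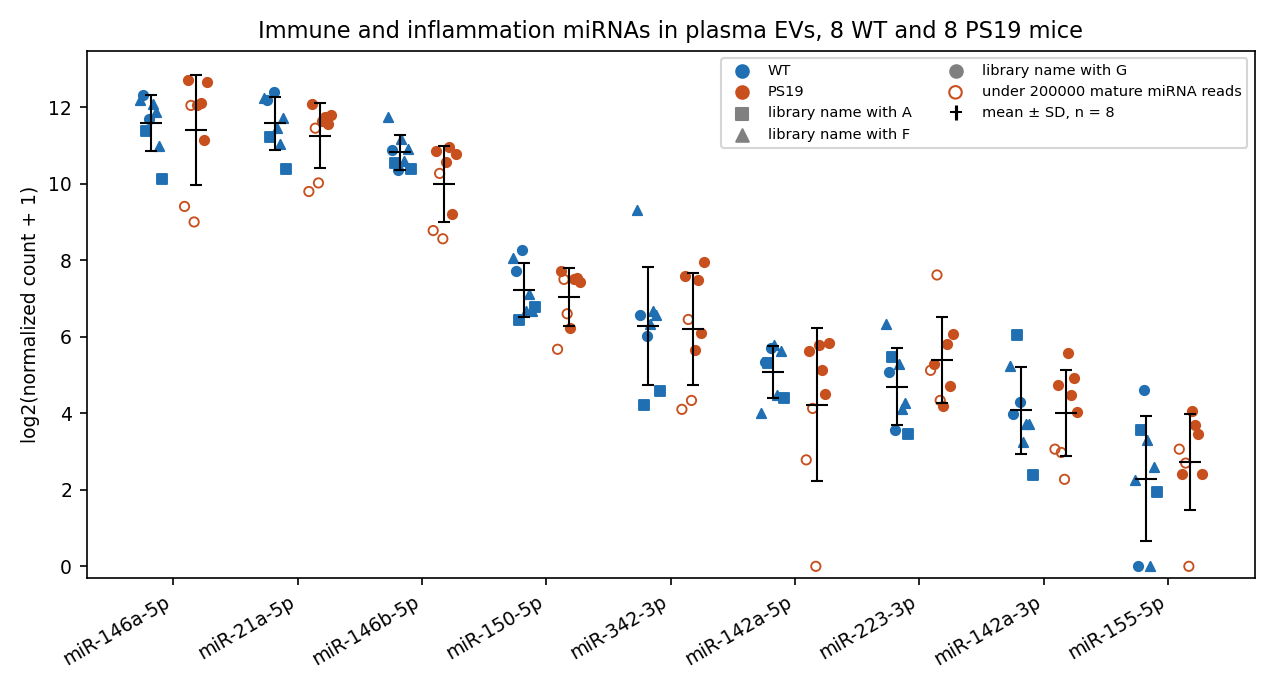
Level of each member in every library, as log2(normalized count + 1), with WT in blue and PS19 in red and the mean ± SD of 8 mice in black. Symbols give the first letter of the library name and open symbols the 3 PS19 libraries under 200000 mature miRNA reads. PS19 and WT points overlap for all 9 members, and miR-155-5p, at the right, is at 0 in 1 PS19 and 2 WT libraries.

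The arms of the 8 hairpins, and the reads assigned to the precursor entry rather than to an arm, differed widely. miR-146b-5p had 31869 reads against 29 of its 3p arm, and miR-21a-5p 60903 against 41. For mir-146a and mir-155 a 5p entry alone was listed. For mir-342 the 3p arm led with 2291 reads against 665.

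Mir223 was read mainly from the arm outside the list. miR-223-5p had 6769 reads and miR-223-3p 769, a ratio of 8.80, and the 5p arm was the higher in 16 of 16 libraries. The 3p arm is the one usually reported as the abundant strand of this hairpin in myeloid cells. The sequence of the 5p arm is shown for comparison with the 3p arm above:
miR-223-5p: cGUGUAUUugacaagcugaguug

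Mir142 stood out by its precursor entry. That entry held 12756 reads, against 708 of miR-142a-5p and 384 of miR-142a-3p, so 92.1% of the reads of the hairpin (range over libraries 83.8% to 95.5%) were in neither arm. The median precursor share over the 179 hairpins with at least 100 reads was 2.64%, and 22 hairpins were above 50%. In the 7 other hairpins of the members the share ran from 0.215% for mir-146a to 8.77% for mir-342. The levels of miR-142a-3p and miR-142a-5p given here are those of the arm entries alone. How reads that reach past an arm were assigned is not given in the sources used here, and its part in the high share was not tested. The strand setting of the counting is likewise not given, so reads of Mir142 and of Mir142b on the opposite strand cannot be told apart, although the mir-142b entry held 1 read in all.

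**Figure D2:**
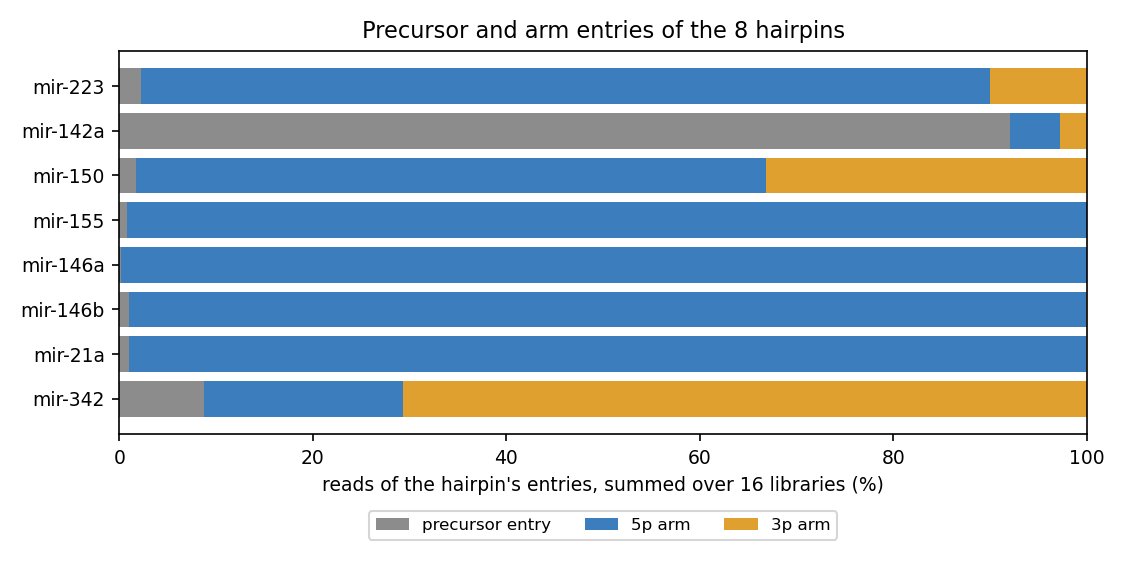
Share of the reads of each hairpin (x axis, %, summed over 16 libraries) assigned to its precursor entry (grey), 5p arm (blue) or 3p arm (orange). The precursor entry holds 92.1% of mir-142a reads, and the 5p arm holds most mir-223 reads.

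PS19 mice were then compared to WT with limma on log2(normalized count + 1), where normalized counts are reads divided by the size factor of the library, and a log2 fold change is PS19 over WT on that scale. Over all ncRNAs, 735 of 15159 (4.85%) had a raw p under 0.05. Among mature miRNAs there were 51 of 817 (6.24%), 6 higher and 45 lower in PS19. None passed after Benjamini-Hochberg adjustment, where the smallest adjusted p over all ncRNAs, members included, was 0.829. Of the 9 members, 0 had a raw p under 0.05 with limma, with an exact permutation test (600 ncRNAs, 3.96%, of which 37 mature miRNAs, 4.53%), with DESeq2 (822 ncRNAs called, 5.42%) or with edgeR (2378 called, 15.7%). Their median log2 fold change was -0.19, with 7 below 0 and 2 above, beside -0.25 over all mature miRNAs and -0.01 over all ncRNAs. With a mean of at least 10 normalized counts, the median was -0.19 over 8 members and -0.64 over 219 mature miRNAs.

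miR-223-3p, the neutrophil and platelet miRNA, ranged from 17.3 to 195 normalized counts in PS19 mice (median 35.9) and from 9.95 to 79.9 in WT (median 25.6). The groups overlapped over most of their range, and PS19 replicate 3 lay far above every other library. The means were 56.2 ± 58.5 and 31.1 ± 23.3 (SD, n = 8 each), from 425 and 344 reads in all. The log2 fold change was 0.70 (SE 0.545, 95% confidence interval -0.42 to 1.82), and neither limma (p = 0.210) nor the two-sided exact permutation test (p = 0.211) called it. The summed platelet markers other than miR-223-3p ranged from 0.470% to 1.19% of mature miRNA reads in PS19 and from 0.555% to 0.774% in WT, and 0 of 3 were called. The highest platelet share was that of PS19 replicate 3, which was also highest in miR-223-3p. Its part in the difference was not tested.

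Mir142 arms mark blood cells of every lineage. miR-142a-3p ranged from 3.83 to 46.2 normalized counts in PS19 mice (median 18.2) and from 4.26 to 65.4 in WT (median 13.5). Both groups covered much the same range, with a log2 fold change of -0.08 (SE 0.572, 95% confidence interval -1.25 to 1.10, limma p = 0.892, exact permutation p = 0.890). With any 1 library left out it ran from -0.32 to 0.20, so the data give it no direction. miR-142a-5p ranged from 0 to 56.0 in PS19 (median 27.9) and from 15.2 to 54.0 in WT (median 39.3). The 2 lowest libraries of this arm were PS19 replicates 4 and 1, and replicate 4 had 0 reads. The log2 fold change was -0.86 (SE 0.667, 95% confidence interval -2.23 to 0.51, limma p = 0.208, exact permutation p = 0.304). It was -0.26 without PS19 replicate 4, -0.25 with DESeq2 and -0.26 with edgeR.

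miR-150-5p, a miRNA of mature B and T cells that represses the transcription factor Myb, ranged from 49.96 to 210 normalized counts in PS19 mice (median 176) and from 85.9 to 306 in WT (median 124). PS19 libraries were spread over the WT range, with replicates 1 and 5 below it. This gave a log2 fold change of -0.19 (SE 0.453, 95% confidence interval -1.12 to 0.74, limma p = 0.674, exact permutation p = 0.604). With any 1 library left out it ran from -0.30 to 0.00048, the latter without PS19 replicate 1.

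miR-342-3p, also of lymphocytes, ranged from 16.2 to 246 normalized counts in PS19 mice (median 76.6) and from 17.6 to 635 in WT (median 86.5). The groups overlapped, with WT replicate 1 highest, at 635, and PS19 replicates 2, 6 and 8, at 191, 176 and 246, above every other WT library. The log2 fold change was -0.08 (SE 0.662, 95% confidence interval -1.43 to 1.28, limma p = 0.910, exact permutation p = 0.927). It was -0.37 with both DESeq2 and edgeR, and 0.36 without WT replicate 1, so the data give it no direction.

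miR-146a-5p, a brake on NF-κB signalling, ranged from 510 to 6714 normalized counts in PS19 mice (median 4242) and from 1120 to 5106 in WT (median 3506). Both the 2 lowest and the 2 highest libraries were PS19. The log2 fold change was -0.19 (SE 0.555, 95% confidence interval -1.33 to 0.95, limma p = 0.737, exact permutation p = 0.751), and it was 0.13 with DESeq2, so the data give it no direction.

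miR-146b-5p, of the same seed, had the smallest p of the members. It ranged from 376 to 1985 normalized counts in PS19 mice (median 1365) and from 1308 to 3396 in WT (median 1697). Of the PS19 libraries, 3 lay above the WT median and 4 (replicates 1, 3, 4 and 7) lay below every WT library. The means were 1213 ± 661 and 1889 ± 695 (SD, n = 8 each), with a log2 fold change of -0.82 (SE 0.459, 95% confidence interval -1.77 to 0.12, limma p = 0.0845, exact permutation p = 0.0611). The value kept its sign when any 1 library was left out, between -0.96 and -0.62. It was -0.26 (95% confidence interval -1.01 to 0.50) with size factors from mature miRNAs, and -0.35 (-1.19 to 0.49) without PS19 replicates 1, 3 and 4, the libraries of few miRNA reads.

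miR-155-5p, the macrophage and lymphocyte activation miRNA, was near the limit of detection. It had 65 reads in the PS19 libraries together and 59 in WT, 0 reads in 1 PS19 and 2 WT libraries, and at most 3 reads, taken here as the smallest count that can be seen, in 5 of 16. Normalized counts ran from 0 to 15.7 in PS19 mice (median 6.42) and from 0 to 23.2 in WT (median 4.44). The log2 fold change of 0.44 (SE 0.678, 95% confidence interval -0.95 to 1.83, limma p = 0.520, exact permutation p = 0.554) shows no difference that was detectable at this depth, and it was 0.20 with DESeq2 and 0.21 with edgeR.

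miR-21a-5p, a miRNA of many inflamed tissues, ranged from 886 to 4293 normalized counts in PS19 mice (median 3100) and from 1330 to 5356 in WT (median 3059). PS19 replicates 1 and 4 lay below all WT libraries, although the medians were close. A log2 fold change of -0.32 (SE 0.463, 95% confidence interval -1.27 to 0.63, limma p = 0.499, exact permutation p = 0.424) was not larger than the spread between mice.

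The direction of the members depended on how the libraries were scaled. Size factors from mature miRNAs alone moved the median log2 fold change of all ncRNAs to 0.17, that of mature miRNAs to -0.10 and that of the members to 0.38, with 7 of 9 above 0. These factors were built from the 179 mature miRNAs with reads in all 16 libraries, which pulls the mature miRNA median toward 0 by design. On that scale miR-223-3p was higher in PS19 by 1.25 (95% confidence interval 0.09 to 2.41, limma p = 0.0359, exact permutation p = 0.0309), and it was the 1 member called, beside 30 of 817 mature miRNAs (3.67%) with limma and 26 (3.18%) with the exact test. PS19 replicate 3 held 891 reads of miR-223-3p per 1000000 mature miRNA reads, against at most 331 in any other library. Without it the value on that scale was 0.87 (95% confidence interval -0.18 to 1.92, limma p = 0.0989, exact permutation p = 0.0608), and the call ended. The other entries of Mir223 were at 0.15 (miR-223-5p, exact permutation p = 0.791) and 0.46 (precursor mir-223, exact permutation p = 0.562) with the miRNA factors. With library totals the medians were -0.12, -0.35 and -0.46, and no member was called. miR-146b-5p and miR-142a-5p kept their sign under all 3 scalings, as did miR-223-3p and miR-155-5p, while the other 5 turned positive with the miRNA factors.

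Without the 3 PS19 libraries under 200000 mature miRNA reads, 8 of 9 members had a log2 fold change above 0, with a median of 0.52 beside -0.13 over mature miRNAs, and 0 were called, beside 26 of 801 mature miRNAs (3.25%) and 612 of 14742 ncRNAs (4.15%). The exception was miR-146b-5p. In the libraries whose names begin with G, 8 PS19 against 2 WT, the members' median was -0.61 and 7 of 9 were below 0, beside medians of -0.36 over mature miRNAs and 0.16 over all ncRNAs. No member was called there, beside 71 of 691 mature miRNAs (10.3%), of which 70 were lower, and 644 of 13933 ncRNAs (4.62%). miR-223-3p was above 0 in both sets, by 0.52 and 1.07, with 95% confidence intervals of -0.58 to 1.62 and -0.89 to 3.03.

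**Figure D3:**
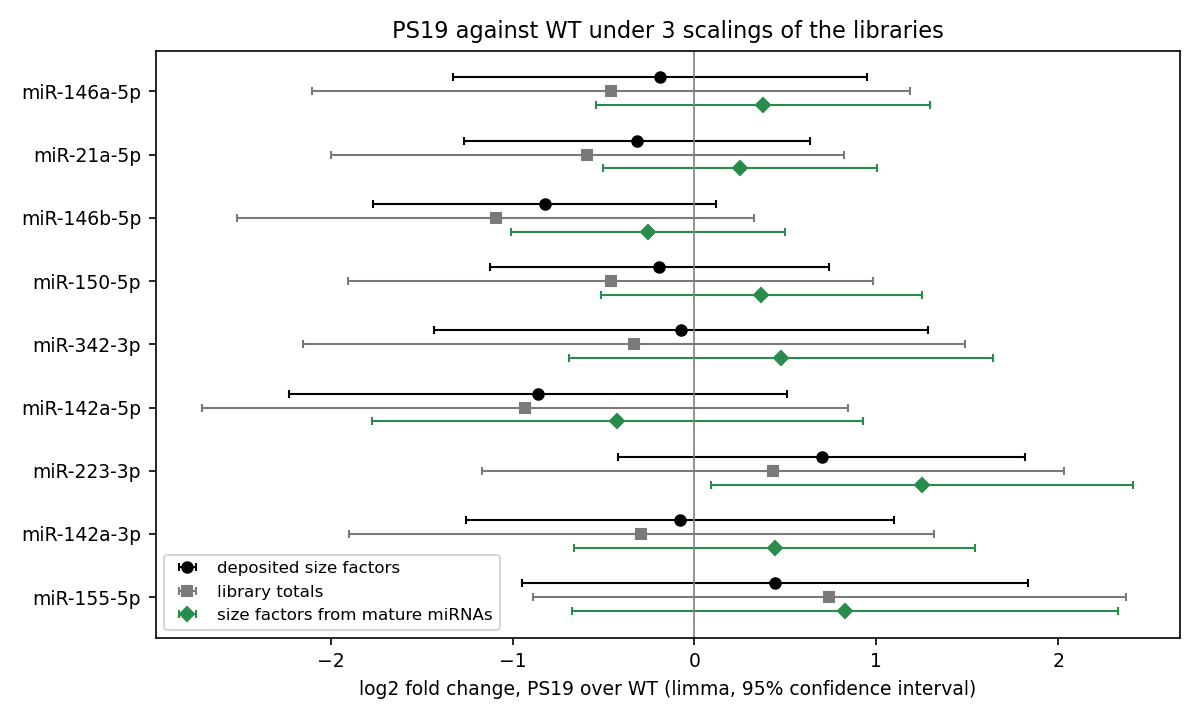
Log2 fold change of each member, PS19 over WT, with its 95% confidence interval from limma, under the deposited size factors (circles), library totals (squares) and size factors from mature miRNAs (diamonds). The interval of miR-223-3p under the miRNA factors, 0.09 to 2.41, is the one that lies wholly above 0.

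The other entries of the same hairpins and 24 further miRNAs known from immune cells or inflammation were read in the same fit. Of these 37 entries, 1 was called, beside 735 of 15159 ncRNAs (4.85%) and 51 of 817 mature miRNAs (6.24%). It was the precursor entry mir-146b, at 10.8 ± 7.74 normalized counts in PS19 mice and 20.7 ± 9.63 in WT (SD, n = 8 each). Its log2 fold change was -1.23 (SE 0.578, 95% confidence interval -2.41 to -0.04, limma p = 0.0434, exact permutation p = 0.0311, DESeq2 p = 0.0771, edgeR p = 0.172), and its adjusted p was 0.829. DESeq2 and edgeR did not call it, and leaving out PS19 replicate 1, 4 or 7 or WT replicate 1, 2, 5, 7 or 8 ended the limma call. The precursor entry and the 5p arm of Mir146b thus had the same sign, but they share their libraries and their scaling.

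Among the 24 further immune miRNAs, 22 had a log2 fold change below 0, with a median of -0.73. Of these 24, 0 were called by limma, beside 51 of 817 mature miRNAs (6.24%). Among mature miRNAs with a mean of at least 10 normalized counts, 203 of 219 were below 0, with a median of -0.64. With size factors from mature miRNAs, 17 of the 24 were below 0 and their median was -0.16, beside -0.10 over all mature miRNAs. The 13 other entries of the members' hairpins had a median of -0.15. The abundant ones among them did not pass the test, with a log2 fold change of -0.65 for the mir-142a precursor entry (512 ± 327 and 665 ± 268 normalized counts, exact permutation p = 0.224) and -0.41 for miR-223-5p (329 ± 258 and 347 ± 325, exact permutation p = 0.575). The values were -1.45 for miR-150-3p (limma p = 0.0874, exact permutation p = 0.173) and -1.38 for miR-342-5p (limma p = 0.0731, exact permutation p = 0.134).

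Ratios of members within a library do not depend on the scaling. The log2 ratio of reads, with 0.5 read added to each, was compared between genotypes for 7 pairs by a two-sided exact permutation test over all 12870 splits, and 0 of 7 had a p under 0.05. The pair of 1 seed, miR-146a-5p to miR-146b-5p, came nearest. In PS19 replicates 1 to 8 the ratio was 1.55, 3.64, 3.43, 1.36, 2.84, 2.22, 3.82 and 3.74. In WT replicates 1 to 8 it was 1.38, 2.74, 1.80, 2.501, 1.90, 2.45, 1.04 and 0.844. The ratio was above the highest WT library in 5 of 8 PS19 libraries, and the lowest values of PS19, in replicates 1 and 4, fell within the WT range.

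The geometric means were 2.64 in PS19 and 1.70 in WT, a log2 difference of 0.64 (exact permutation p = 0.0578, 0.405 after adjustment over the 7 ratios). It was 0.91 without the 3 PS19 libraries of few miRNA reads (exact permutation p = 0.0155). In the libraries with the letter G the log2 difference was 0.01, as the 2 WT libraries with that letter held the highest WT ratios. Letter and genotype cannot be told apart for this ratio.

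The myeloid to lymphocyte ratio, miR-223-3p to miR-150-5p, had a median of 0.269 in PS19 mice and 0.170 in WT, a log2 difference of 0.91 (exact permutation p = 0.123, adjusted p = 0.429). Within the letter G the difference was 2.06 (exact permutation p = 0.0667), and without the 3 libraries of few miRNA reads it was 0.46 (p = 0.467). miR-223-3p to miR-142a-3p differed by 0.75 (exact permutation p = 0.334) and turned to -0.16 without those 3 libraries. The ratio of the Mir142 arms, 3p to 5p, differed by 0.72 (exact permutation p = 0.256), and by 0.45 without PS19 replicate 4, whose 5p arm had 0 reads. For miR-155-5p to miR-146a-5p the medians were 0.00325 in PS19 and 0.00242 in WT. The difference of its mean log2 ratio, 1.24 (exact permutation p = 0.295), depends on the 0.5 read added to miR-155-5p in WT replicates 2 and 6, which had 0 reads and log2 ratios of -14.6 and -13.7, against -10.0 to -7.10 in the other WT libraries. The smallest differences were those of miR-150-5p to miR-342-3p, at -0.13 (exact permutation p = 0.819), and miR-21a-5p to miR-142a-3p, at -0.29 (p = 0.541).

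**Figure D4:**
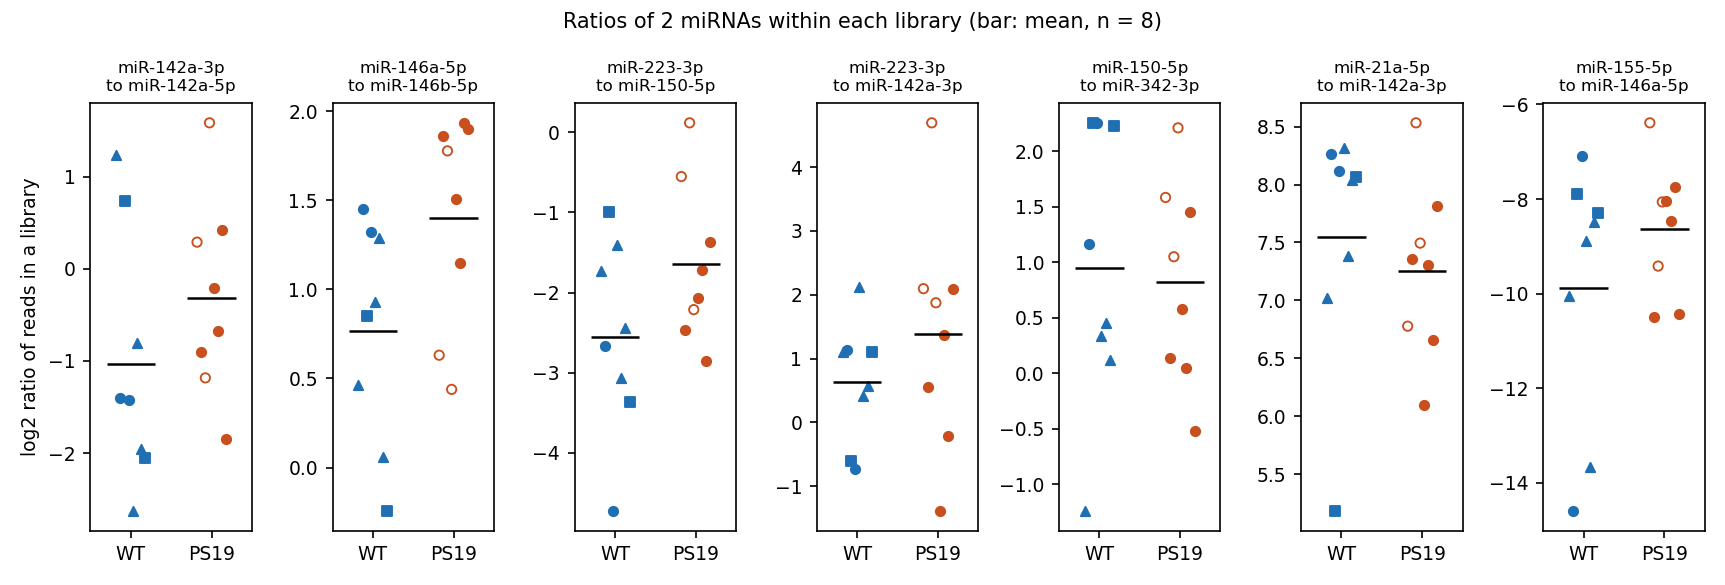
Log2 ratio of the reads of paired members in each library for 8 WT (blue) and 8 PS19 (red) mice, with a bar at the mean, and with circles, triangles and squares for library names with G, F and A. Open circles are the 3 PS19 libraries under 200000 mature miRNA reads. For miR-146a-5p to miR-146b-5p, 5 of 8 PS19 libraries are above every WT library, and the WT libraries with G are the highest of their group.

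The miRNA outside the list whose log2 level followed each member most closely over the 16 libraries was taken from 211 candidates with a mean of at least 10 normalized counts. These values share libraries, depth and scaling and are given as a description. The closest were miR-195a-3p for miR-146b-5p (Pearson r = 0.93, Spearman rho = 0.82), miR-148b-3p for miR-21a-5p (r = 0.93, rho = 0.87) and miR-423-3p for miR-146a-5p (r = 0.92, rho = 0.88). miR-1964-3p followed miR-142a-5p (r = 0.90, rho = 0.76), miR-361-5p followed miR-342-3p (r = 0.84, rho = 0.86) and miR-378b followed miR-150-5p (r = 0.80, rho = 0.74). The weakest were miR-185-5p for miR-142a-3p (r = 0.73, rho = 0.62), miR-5112 for miR-223-3p (r = 0.67, rho = 0.49) and miR-1a-3p, of muscle, for miR-155-5p (r = 0.66, rho = 0.68). Among the members, the abundant miR-146a-5p and miR-21a-5p were closest to each other (r = 0.86, rho = 0.71).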

How the data were processed

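Small RNA libraries (NEBNext, single end, NextSeq) from pEVs of 8 PS19 and 8 WT mice were analysed. The authors aligned reads with STAR 2.5.3a, assigned them to ncRNAs with COMPSRA and used DESeq2 1.42.1, on mm10 per the submitters' processing notes. The deposited signal values are counts that the authors divided by the DESeq2 size factor of each library. Whole reads were recovered from them, with 100% of values whole within 1e-06 of a read. Deposited columns with the authors' means, fold changes, standard errors, statistics and p-values were not used.

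On the scale log2(normalized count + 1), limma 3.58.1 (lmFit, eBayes with trend) was run in R 4.3.3 over all 15159 ncRNAs, without a filter, two-sided, at the raw p of 0.05 that the study used and after Benjamini-Hochberg adjustment. limma was chosen because the values are normalized. Exact permutation tests compared the means of 8 against 8 libraries. The scripts were tested on simulated data. Alternatives were DESeq2 1.42.0 and edgeR 4.0.16 on recovered reads, TMM factors, library totals, size factors from mature miRNAs, a pseudocount of 0.1, a mean of at least 1 or 10, a replicate block, libraries with the letter of the PS19 names, removal of libraries whose total was under 50% of the median, 1 entry per set of identical values, and each library left out. Leaving out libraries under 200000 mature miRNA reads was chosen after seeing the data, as was leaving out PS19 replicate 3 under the miRNA factors.

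The miRNAs given by name are the members, every entry of their hairpins, further immune miRNAs with a raw p under 0.05, and the closest mature miRNA to each member by Pearson r, beside a few marked as named after their values were seen. Members and lists were chosen with earlier results of these data known. Markers of red blood cells (3 of 7 called, all lower in PS19, 2 of them the near-identical miR-486a-5p and miR-486b-5p, named after their values were seen), platelets (0 of 3), liver (1 of 4, lower), neurons (0 of 5), muscle (1 of 4, higher), epithelium (2 of 6, lower) and pancreatic islet (0 of 1) were summed per library, where 51 of 817 mature miRNAs (6.24%) were called. No called marker changed sign with library totals or miRNA factors, but the calls for red blood cells became 0 and 1, and those for epithelium 0 under both. Neurons took 0.364% to 5.11% of mature miRNA reads in PS19 and 0.312% to 1.57% in WT, muscle 0.602% to 15.6% and 0.511% to 8.99%, epithelium 0.0272% to 0.166% and 0.0673% to 0.216%, and islet 0.0194% to 0.491% and 0.0907% to 0.394%. Reads carry no molecular identifiers, so floors and shares cover counting error only. Positions and overlapping genes are from RefSeq and GENCODE on GRCm38. Python 3.11.15, numpy 2.4.6, pandas 2.3.3 and scipy 1.17.1 were used.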

Additional observations from a re-analysis of the deposited data

Results flagged for a closer look

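Among 32 groups of 8 libraries, taken over the members' normalized counts and the log2 ratios, 6 had a highest or lowest library far from the rest. Chance gives about 1 in 20 for independent groups of normal values, but the counts were not log-transformed and the groups share libraries, so that rate was not shown to hold here. PS19 replicate 3 had 195 normalized counts of miR-223-3p, far above the other PS19 mice. WT replicate 1 stood above the other WT libraries in 3 members, with 79.9 normalized counts of miR-223-3p, 3396 of miR-146b-5p and 635 of miR-342-3p. WT replicate 4 had 23.2 normalized counts of miR-155-5p, above the other WT mice, on few reads. WT replicate 3 had a log2 ratio of miR-21a-5p to miR-142a-3p of 5.18, below the other WT libraries, and it also had the highest miR-142a-3p value of all 16 libraries.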

How the results depend on the processing

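The 735 calls over all ncRNAs (412 higher, 323 lower in PS19) became 2378 with edgeR, 2295 with edgeR and TMM factors, 454 (151 higher, 303 lower) with library totals and 230 with a mean of at least 10, where miR-155-5p gave no value. Size factors from mature miRNAs gave 726 higher and 131 lower. Leaving out 1 library gave 567 to 846. No member was called except 1, miR-223-3p, with the mature miRNA factors (1.25, or 0.87 and not called without PS19 replicate 3), and 0 to 0 with 1 library left out. Those factors also turned miR-142a-3p to 0.44, miR-150-5p to 0.37, miR-146a-5p to 0.38, miR-21a-5p to 0.25 and miR-342-3p to 0.48. Without the 3 PS19 libraries under 200000 mature miRNA reads the values were 0.66 for miR-142a-3p, 0.29 for miR-142a-5p, 0.0688 for miR-150-5p, 0.56 for miR-146a-5p, 0.18 for miR-21a-5p, 0.67 for miR-342-3p and -0.16 for the ratio of miR-223-3p to miR-142a-3p. miR-146a-5p was at 0.13 with both DESeq2 and edgeR.

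With 1 library left out, log2 fold changes ran from 0.38 to 0.93 for miR-223-3p, -0.32 to 0.20 for miR-142a-3p, -1.09 to -0.26 for miR-142a-5p, -0.30 to 0.00048 for miR-150-5p, 0.12 to 0.83 for miR-155-5p, -0.39 to 0.15 for miR-146a-5p, -0.96 to -0.62 for miR-146b-5p, -0.49 to -0.11 for miR-21a-5p and -0.37 to 0.36 for miR-342-3p. The log2 differences of the ratios ran from 0.45 to 1.04 (Mir142 arms), 0.49 to 0.77 (miR-146a-5p to miR-146b-5p), 0.60 to 1.13 (miR-223-3p to miR-150-5p), 0.27 to 1.14 (miR-223-3p to miR-142a-3p), -0.44 to 0.0631 (miR-150-5p to miR-342-3p), -0.63 to -0.13 (miR-21a-5p to miR-142a-3p) and 0.56 to 1.64 (miR-155-5p to miR-146a-5p).

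The miR-146a-5p to miR-146b-5p ratio passed with PS19 replicate 1 or 4 or WT replicate 2, 4 or 6 left out (smallest exact permutation p = 0.0211). These libraries held the lowest PS19 and the highest WT ratios, so leaving out any 1 of them widens the difference. The limit of 50% of the median total takes out WT replicate 2 alone and is the same fit (0.73, exact permutation p = 0.0371). The ratio also passed without the 3 low PS19 libraries, chosen after seeing the data (0.91, exact permutation p = 0.0155). Of the 37 other entries, 1 was called, beside 735 of 15159 ncRNAs (4.85%). None were called with edgeR, edgeR and TMM factors, library totals, miRNA factors, the letter of the PS19 names or the 50% limit. The count was 3 with a pseudocount of 0.1 (mir-146b, miR-342-5p and miR-150-3p), beside 63 of 817 mature miRNAs, and 2 without the low PS19 libraries (miR-9-5p and miR-132-3p, named after their values were seen), beside 26 of 801. It was 0 to 6 with 1 library left out, the 6 without PS19 replicate 2, beside 62 of 803. The precursor entry mir-146b was at -0.45 without the low PS19 libraries and between -1.44 and -0.78 with 1 library left out.

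Replicate numbers are those of different mice: deviations of same-numbered libraries correlated between -0.181 and 0.474, and 1 of 8 correlated best with its own number. With the replicate block there were 685 calls, 0 members and 1 other entry, and p was 0.117 for miR-146b-5p and 0.125 for the miR-146 ratio. Depth limits miR-155-5p most. The causes of these shifts were not tested.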

Other observations

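Of the 37 other immune entries, 4 had a two-sided exact permutation p under 0.05 on the log2 scale, and all 4 were lower in PS19 mice, beside 37 of 817 mature miRNAs (4.53%). Besides the precursor entry mir-146b, these were miR-126a-3p, let-7e-5p and miR-125a-5p, which are named after their values were seen and which limma did not call. miR-126a-3p, the endothelial and platelet miRNA, had 1293 ± 563 normalized counts in PS19 mice and 2042 ± 590 in WT (SD, n = 8 each, log2 fold change -0.75, exact permutation p = 0.0169, limma p = 0.0849). DESeq2 gave it a p of 0.0461 and edgeR a p of 0.259. let-7e-5p and miR-125a-5p come from 1 cluster, so their values are not independent. let-7e-5p had 451 ± 256 and 692 ± 138 normalized counts (log2 fold change -1.003, exact permutation p = 0.0343), and miR-125a-5p had 256 ± 161 and 391 ± 102 (log2 fold change -0.94, exact permutation p = 0.0420). With size factors from mature miRNAs, 0 of the 37 entries had an exact permutation p under 0.05. The log2 fold changes were then -0.80 for mir-146b (exact permutation p = 0.113), -0.18 for miR-126a-3p (0.404), -0.44 for let-7e-5p (0.242) and -0.38 for miR-125a-5p (0.347).

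The members together took 1.04% to 3.99% of the mature miRNA reads in PS19 mice (median 1.73%) and 0.828% to 1.72% in WT (median 1.21%). The highest share was that of PS19 replicate 3 and the lowest in PS19 that of replicate 4, both among the 3 PS19 libraries of few miRNA reads.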
